A study of Mus musculus with 11 samples.

Results

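The Fos locus was read in chromatin accessibility lists from mouse dentate gyrus, a part of the hippocampus whose main neurons are granule cells. The locus was taken as every region that touched the 50 kb on either side of the Fos start, given as 86.815 Mb on the plus strand of chromosome 12 in build mm9. It held 9 regions of 128823 in the whole series, made by joining overlapping peaks (1 bp or more in common) of the 11 lists on chromosomes 1 to 19 and X. Accessibility was measured by ATAC-seq, in which a transposase inserts adapters into open DNA and a peak marks a stretch where insertions accumulate. The dentate gyrus of C57BL/6 mice, 8 weeks old, had been infected with an adeno-associated virus (AAV) and was microdissected, and each library came from 1 mouse. The E1 state had 2 libraries with shRNA-cFos and 3 with shRNA-Ctrl, and the E0 state had 3 libraries with each. All 4 groups carried the virus, with an shRNA against c-Fos or a control shRNA. The study asked how neuronal activation changes accessibility. Lists of the E0 state are named as sham, and nothing further on E1 was used here. The dissected tissue holds infected and uninfected cells of several types, so a change in the share of cells and a change within cells cannot be told apart. The lists do not show how far c-Fos was reduced, and its shRNA acts on the transcript, not on the DNA measured here.

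Fos is an immediate early gene: its transcription starts within minutes of neuronal activity, without new protein synthesis. Its protein, c-Fos, pairs with a Jun family protein to form the transcription factor AP-1, which binds many enhancers. Transcription of Fos is driven by factors already present in the cell, among them SRF with its ternary complex partners and CREB, acting on the promoter, together with several distal enhancers on both sides of the gene. The lists do not name these enhancers, and the flanking regions are therefore called by their distance from the start.

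The promoter sequence is shown because, of the 4 regions near Fos called in every library, the one over the start differed most between E1 and E0. Fos, the only gene of the locus definition, matched 1 entry of the RefSeq promoter table, of build GRCm38.p6, at chr12:85473640-85473889 on the plus strand. That build is not the build of the peaks, and its positions cannot be set beside mm9 positions. The 250 bases before the start follow, with motif matches in capitals.

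Fos promoter: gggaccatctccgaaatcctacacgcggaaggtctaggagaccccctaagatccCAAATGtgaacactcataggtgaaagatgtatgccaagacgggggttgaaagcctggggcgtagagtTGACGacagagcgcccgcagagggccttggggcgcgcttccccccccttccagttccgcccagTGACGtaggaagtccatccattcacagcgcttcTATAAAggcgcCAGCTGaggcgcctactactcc

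Counting the last base before the start as -1, the core of the cAMP response element (CRE), TGACG, occurred at -129 to -125 and at -66 to -62. CREB binds these letters, and 17.8% of the 32851 RefSeq promoters hold it in the same 250 bases on either strand. The TATA box letters TATAAA, which position the transcription machinery, occurred at -33 to -28 and are found in 12.4% of promoters. E-box letters, CANNTG, occurred at -196 to -191 and at -22 to -17, as in 66.2% of promoters. The full CRE TGACGTCA, the AP-1 site TGANTCA, the EGR site GCGNGGGCG and the CArG box of SRF had no match on either strand in this window. They are found in 1.55%, 6.75%, 4.7% and 1.47% of promoters. Only these 250 bases were searched, so a site of SRF or AP-1 further upstream would not be seen. No motif search was run on the distal regions, whose mm9 sequence was not used here.

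The 11 lists held 25215 to 78377 peaks each, and read depth is unknown. A longer list may hold weaker peaks at any locus, so the main values are also given with each list shortened to its 25145 highest-scoring peaks, called equal length below. Shortening drops whole peaks and leaves the length of a kept peak as deposited, so it does not adjust for longer peaks in longer lists. Score is the peak caller's value for each peak as the authors deposited it. It was read as a rank among the peaks of 1 list, and as a minimum in 1 alternative. The names of 2 lists, shRNA-Ctrl E1 replicates 1 and 3, lack a word that the other 9 carry, and these are also the 2 longest lists. The third-longest is shRNA-cFos E0 replicate 2. List length and this word thus move in part with the groups, and values at equal length and among the 9 lists are given beside the main results. Among the 9 lists only replicate 2 is left in shRNA-Ctrl E1, so for them the size of a difference is given without a test.

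Of the 9 regions, 4 were called in all 11 libraries and form the constant part of the locus. They lie 37.7 kb and 18.6 kb before the start, over the start itself and 12.0 kb after it. Each was also called in all 11 libraries at equal length. In the genome 11796 regions (9.16%) were called in all 11. The other 5 regions were called in 1 to 6 libraries, and of them 3 followed the E1 state closely. The regions nearest to the window but outside it lay 75.6 kb before the start (called in 2 libraries) and 59.3 kb after it (1 library). In the GRCm38 annotation the nearest coding genes are Tmed10, which encodes a cargo receptor of the early secretory pathway, and Jdp2, which encodes a repressor that pairs with AP-1 proteins. That annotation also places the noncoding RNA genes Gm29709, Gm40477 and Gm38543 and the pseudogene Gm46370 within 50 kb of the Fos start. No gene was assigned to a distal region.

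**Figure D1:**
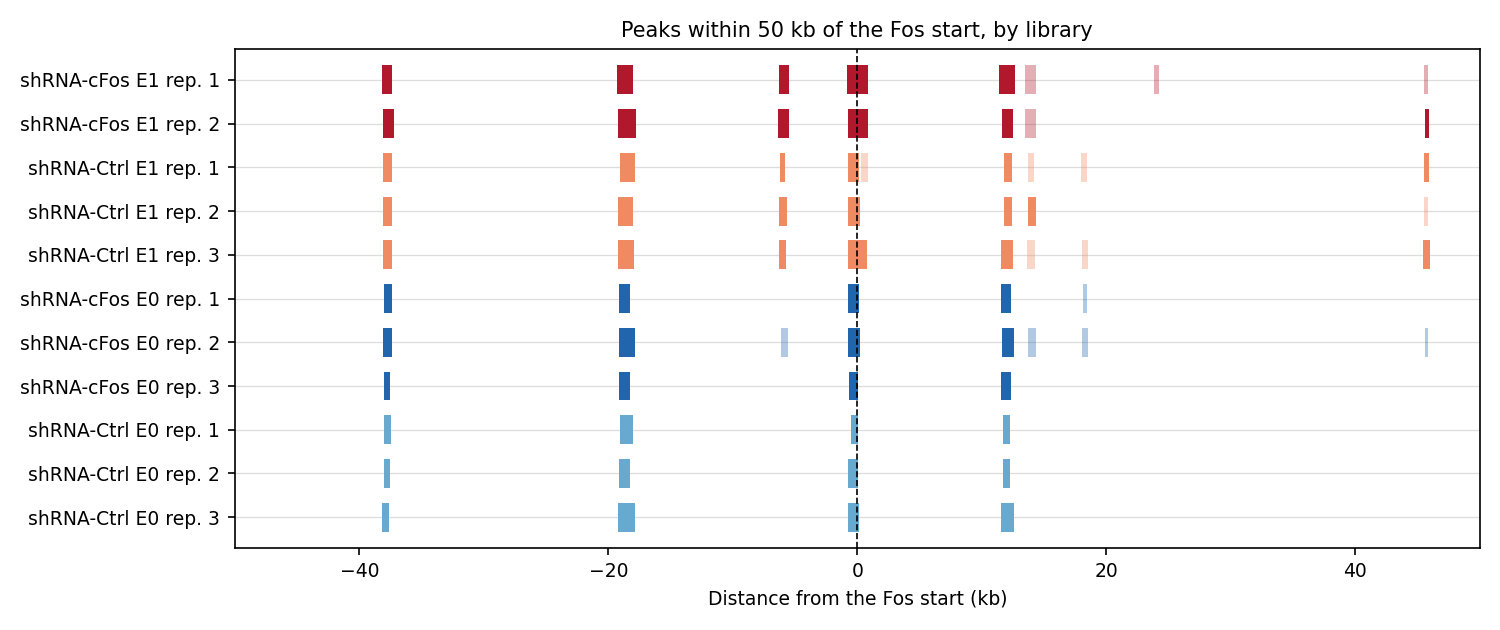
Peaks of each library (rows, coloured by group) against distance from the Fos start in kb, drawn to scale. Dark bars are peaks kept at equal list length and pale bars are peaks present only in the list as deposited. The 4 constant regions stand in every row, and the region 5.9 kb before the start has a dark bar in the 5 E1 rows and only a pale one among the E0 rows.

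The region over the start was longer in E1 than in E0 libraries. It spans chromosome 12 at 86814165 to 86815881 in mm9. Its peaks covered 1677 and 1631 bp in shRNA-cFos E1, against 872, 907 and 683 bp in shRNA-cFos E0. They covered 1417, 946 and 1507 bp in shRNA-Ctrl E1, against 552, 804 and 877 bp in shRNA-Ctrl E0. Every E1 value lay above every E0 value in both shRNA groups, although shRNA-Ctrl E1 replicate 2, at 946 bp, was only slightly above the longest E0 value of 907 bp. Group means were 1654 ± 32.5 bp (SD, n = 2) in shRNA-cFos E1 and 820.7 ± 121 bp (n = 3) in shRNA-cFos E0. In shRNA-Ctrl they were 1290 ± 301 bp at E1 and 744.3 ± 171 bp at E0 (SD, n = 3 each). The difference E1 minus E0, averaged over the shRNA groups, was 689.5 bp (two-sided exact permutation p = 0.005, the smallest these labels allow; adjusted p = 0.045 by Benjamini-Hochberg over 9 tests). At equal length it was 602.8 bp (exact permutation p = 0.005), with shRNA-Ctrl E1 replicate 1 at 897 bp, just under the longest E0 value. Peaks kept at equal length have their deposited length. Among the 9 lists that carry the added word the difference was 517.5 bp. Divided by the total length covered by each list, the difference was 7.76 bp per Mb and no longer passed (exact permutation p = 0.29).

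Most of the added length lay after the start, on the side of the gene. The position of the start is as given above, to the nearest kb, and the lengths on each side depend on it. Downstream of the start, peaks covered 841 and 881 bp in shRNA-cFos E1, against 127, 189 and 43 bp in shRNA-cFos E0. They covered 673, 189 and 749 bp in shRNA-Ctrl E1, against 23, 91 and 96 bp in shRNA-Ctrl E0. In 4 of the 5 E1 libraries at least 673 bp were covered past the start, and shRNA-Ctrl E1 replicate 2 had the same 189 bp as shRNA-cFos E0 replicate 2. The E1 minus E0 difference downstream was 604.2 bp (two-sided exact permutation p = 0.005; adjusted p = 0.03 over 12 tests), a test chosen after seeing the peaks. At equal length it was 517.5 bp (exact permutation p = 0.005), and among the 9 lists with the added word 430.2 bp. It was 16.81 bp per Mb covered by the list (exact permutation p = 0.005). Upstream the covered length was 750 and 836 bp in shRNA-cFos E1 and 744 to 758 bp in shRNA-Ctrl E1, against 640 to 745 bp in shRNA-cFos E0 and 529 to 781 bp in shRNA-Ctrl E0, and the states overlapped. In shRNA-Ctrl E1 replicate 1 the downstream part was mostly a separate peak of 520 bp with a score of 52.78, close to the lowest score of any list, 50. At equal length that peak was gone and the library had 153 bp downstream.

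**Figure D2:**
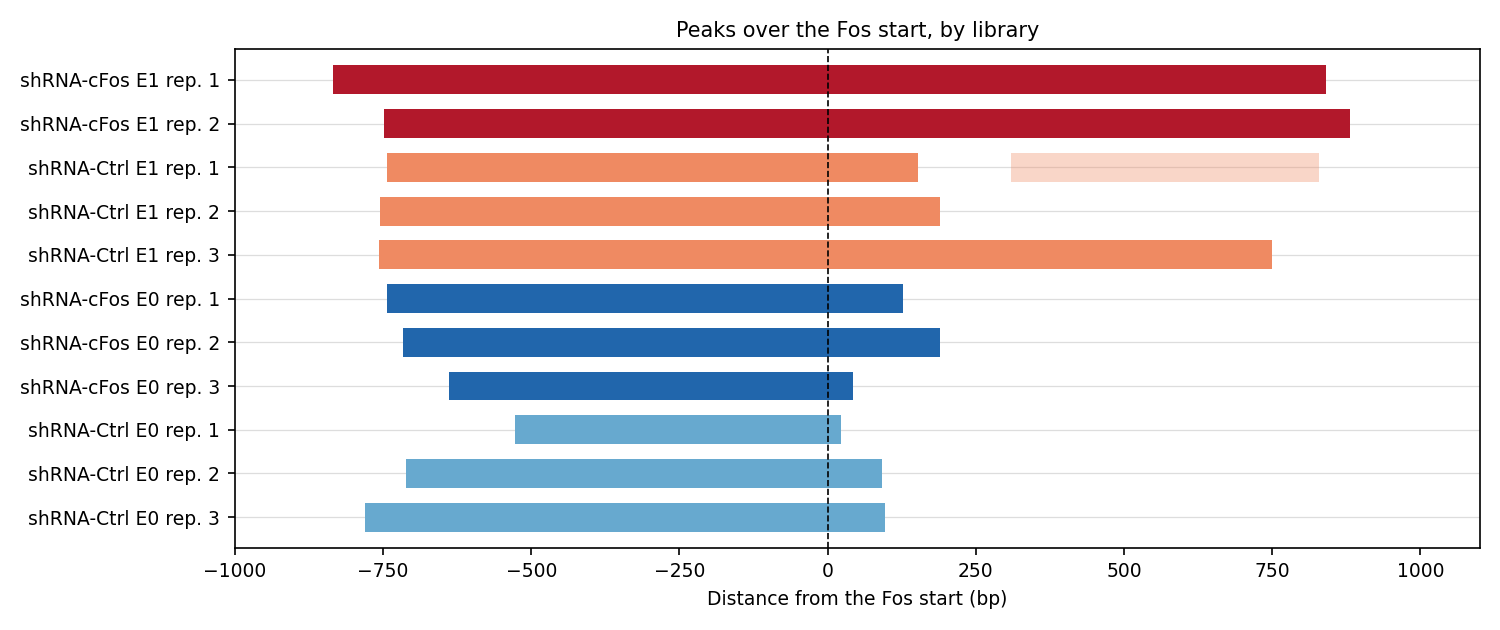
Peaks over the Fos start by library (rows, coloured by group), with distance from the start in bp on the horizontal axis. Dark bars were kept at equal list length and the pale bar was not. Both shRNA-cFos E1 libraries and shRNA-Ctrl E1 replicate 3 extend 749 to 881 bp past the start, and no E0 library extends more than 189 bp.

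Longer peaks at E1 were common, so the promoter was set beside all 11796 regions called in all 11 libraries. The median difference in covered length over these regions was 86.58 bp, and 76.5% of them were longer at E1. The promoter, at 689.5 bp, stood at percentile 98.12 of these differences, and at percentile 97.92 over 9716 such regions at equal length. The differences are in bp and were not scaled to region length. The promoter region spans 1717 bp, against a median of 1363 bp over the 11796 regions (length percentile 71.6). An exact permutation p under 0.05 with longer peaks at E1 was found for 11.2% of these regions, and for 2 of the 4 near Fos. With Benjamini-Hochberg adjustment over all 11796 regions the promoter's adjusted p from the same exact permutation test was 0.282. This was the smallest value, and every region with the same unadjusted p of 0.005 shares it. No region passed adjustment, and 1352 had an unadjusted p under 0.05 in either direction. The region 37.7 kb before the start, on chromosome 12 at 86776793 to 86777744, was the other one. It covered 860 and 872 bp in shRNA-cFos E1, against 598, 770 and 458 bp in shRNA-cFos E0. It covered 750, 764 and 746 bp in shRNA-Ctrl E1, against 580, 483 and 535 bp in shRNA-Ctrl E0. Only shRNA-cFos E0 replicate 2, at 770 bp, reached into the E1 range. The difference was 239 bp (exact permutation p = 0.01; adjusted p = 0.291 over all 11796 regions), at percentile 81.56 of these differences.

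**Figure D3:**
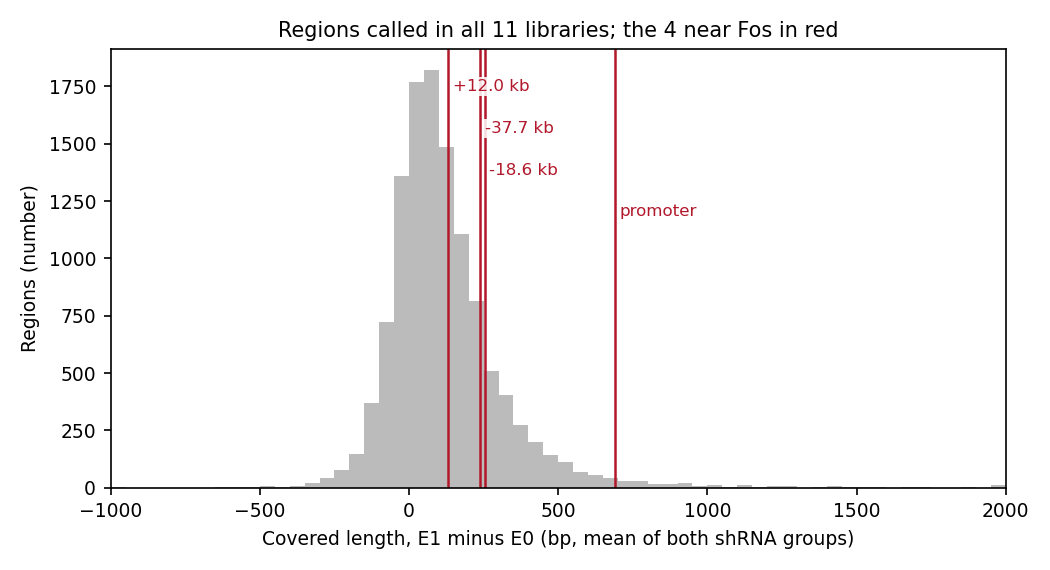
Histogram of the difference in covered length, E1 minus E0 in bp (horizontal axis, values beyond the axis placed in the end bins), over the 11796 regions called in all 11 libraries (vertical axis, number of regions). Red lines mark the 4 regions near Fos, of which the promoter lies at 689.5 bp and the others between 131.7 and 253.4 bp.

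Neither of the other 2 constant regions passed the test. The region 18.6 kb before the start, on chromosome 12 at 86795673 to 86797226, had the highest score of the 4 in all 11 libraries, with score percentiles from 89.83 to 99.33 within the lists. It covered 1377.5 ± 106.8 bp (SD, n = 2) in shRNA-cFos E1 and 1043.3 ± 268.3 bp (n = 3) in shRNA-cFos E0. In shRNA-Ctrl it covered 1228.3 ± 105.7 bp at E1 and 1055.7 ± 246.9 bp at E0 (n = 3 each). The states overlapped in both shRNA groups and the difference of 253.4 bp did not pass (exact permutation p = 0.105). The region 12.0 kb after the start, on chromosome 12 at 86826365 to 86827629, lay further from the start than the 3385 bp length of the gene in the GRCm38 annotation. It covered 1265 and 869 bp in shRNA-cFos E1, against 802, 918 and 849 bp in shRNA-cFos E0. It covered 688, 600 and 958 bp in shRNA-Ctrl E1, against 560, 508 and 1020 bp in shRNA-Ctrl E0. Its difference of 131.7 bp lay within the spread of libraries (exact permutation p = 0.255).

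The promoter's place by score among these 4 regions was the third and the fourth in the shRNA-cFos E1 libraries. It was the third, the second and the second in shRNA-Ctrl E1 replicates 1, 2 and 3. It was the third, the fourth and the third in shRNA-cFos E0, and the fourth, the third and the third in shRNA-Ctrl E0. The promoter thus ranked second only in shRNA-Ctrl E1 replicates 2 and 3, and it ranked above the constant region 18.6 kb before the start in none of the 11. These places are a description, since score is not on a stated scale.

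Among the other regions, 3 had a peak in each of the 5 E1 libraries and in a single E0 library, which was shRNA-cFos E0 replicate 2 each time. They lie 5.9 kb before the start and 13.9 kb and 45.7 kb after it. The libraries with these calls also had the longest lists, from 35474 (shRNA-Ctrl E1 replicate 2) to 78349 peaks (shRNA-Ctrl E1 replicate 1) on the chromosomes kept. No library without these calls had more than 33134 peaks (shRNA-cFos E0 replicate 1). The part of list length in these calls was not tested, and values at equal length follow. All 3 regions were found in every shRNA-Ctrl E1 library and in no shRNA-Ctrl E0 library, a pattern held by 6.04% of all regions (7779 of 128823). None of the 9 regions showed the like pattern in shRNA-cFos, held by 1.96% of all regions. With shRNA-cFos E0 replicate 2 left out 3 of the 9 did, against 5.86% of all regions. No region near Fos was found only at E0 in shRNA-cFos or in shRNA-Ctrl, against 0.548% and 0.0442% of all regions. Each of the 3 had p = 0.02 for E1 against E0 by the exact permutation test within shRNA groups, and 3.48% of all regions had p under 0.05 with more calls at E1. After adjustment over all regions each had an adjusted p of 0.57, so none passed. This was the smallest value, shared by every region with an exact permutation p of 0.02 or lower. Among the 9 lists with the added word a single shRNA-Ctrl E1 library is left, so no test of these calls is given there. In the genome 1436 regions (1.11%) had the same calls in the same libraries.

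The region 5.9 kb before the start, on chromosome 12 at 86808658 to 86809484, followed the E1 state most closely. Its peaks were 777 and 821 bp long in shRNA-cFos E1, against 538 bp in shRNA-cFos E0 replicate 2 and no peak in shRNA-cFos E0 replicates 1 and 3. They were 416, 634 and 625 bp long in shRNA-Ctrl E1, against no peak in the 3 shRNA-Ctrl E0 libraries. The peak of shRNA-cFos E0 replicate 2 had a score percentile of 48.11 in its list of 74432 peaks, and the E1 peaks had percentiles between 41.52 (shRNA-Ctrl E1 replicate 2) and 76.65 (shRNA-cFos E1 replicate 2). At equal length every E1 library (5 of 5) and no E0 library (0 of 6) had a peak here (exact permutation p = 0.005, the smallest the labels allow; adjusted p = 0.468 over 59298 regions, of which 3.09% had p under 0.05 with more calls at E1). It was then the only one of the 7 regions near Fos found at E1 alone in shRNA-cFos and in shRNA-Ctrl, patterns held by 3.39% and 3.51% of all regions at that length.

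The region 13.9 kb after the start, on chromosome 12 at 86828448 to 86829352, lies beside the constant region 12.0 kb after it. Its peaks were 905 and 860 bp long in shRNA-cFos E1, against 650 bp in shRNA-cFos E0 replicate 2 alone, and 474, 650 and 594 bp long in shRNA-Ctrl E1, against none in shRNA-Ctrl E0. Its score percentiles ran from 35.65 to 42.92 in shRNA-cFos E1 and from 52.14 to 63.84 in shRNA-Ctrl E1, with 14.38 in the E0 library. At equal length only shRNA-Ctrl E1 replicate 2 kept a peak there. The region 45.7 kb after the start, on chromosome 12 at 86860412 to 86860997, had peaks of 295 and 290 bp in shRNA-cFos E1, against 259 bp in shRNA-cFos E0 replicate 2 alone. It had peaks of 369, 326 and 586 bp in shRNA-Ctrl E1, against none in shRNA-Ctrl E0. The E0 peak had a score of 50.51, at percentile 0.8733 of its list. At equal length 3 libraries kept the region, shRNA-cFos E1 replicate 2 and shRNA-Ctrl E1 replicates 1 and 3 (exact permutation p = 0.08).

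The remaining 2 regions did not separate the states. The region 18.3 kb after the start, on chromosome 12 at 86833007 to 86833502, was called in shRNA-Ctrl E1 replicates 1 and 3 and in shRNA-cFos E0 replicates 1 and 2, with score percentiles from 9.858 to 41.46. The region 24.0 kb after the start, on chromosome 12 at 86838829 to 86839211, was called in shRNA-cFos E1 replicate 1 alone, at score percentile 9.15. No library kept either at equal length.

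The summed length of the flanking peaks was higher at E1, while their number did not pass adjustment. Peaks other than those over the start numbered 7 and 6 in shRNA-cFos E1, against 4, 7 and 3 in shRNA-cFos E0. They numbered 7, 6 and 7 in shRNA-Ctrl E1, against 3 in each shRNA-Ctrl E0 library. Apart from shRNA-cFos E0 replicate 2, every E1 library had more than every E0 library. The difference was 2.75 peaks (two-sided exact permutation p = 0.02, adjusted p = 0.06 over 9 tests) and 2.42 peaks among the 9 lists with the added word. Per 10000 peaks of the list it was 0.238 (exact p = 0.15). At equal length the numbers were 4 and 5 in shRNA-cFos E1 and 5 in each shRNA-Ctrl E1 library, against 3 in every E0 library, so the states did not overlap. The difference was then 1.75 peaks (exact permutation p = 0.005).

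The flanking peaks covered 5787 and 5165 bp in shRNA-cFos E1, against 2622, 4958 and 2188 bp in shRNA-cFos E0. They covered 4324, 4158 and 5323 bp in shRNA-Ctrl E1, against 2171, 1813 and 2869 bp in shRNA-Ctrl E0. Only shRNA-cFos E0 replicate 2 lay in the range of the E1 libraries. The difference of 2269 bp passed (exact permutation p = 0.01; adjusted p = 0.045 over 9 tests). At equal length the flanking peaks covered 4204 and 4305 bp in shRNA-cFos E1, against 2296, 3041 and 2188 bp in shRNA-cFos E0, and the states did not overlap in either shRNA group. The difference was 2047 bp among the 9 lists with the added word. Per Mb covered by the list it was 33.1 bp (exact permutation p = 0.07), which did not pass.

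**Figure D4:**
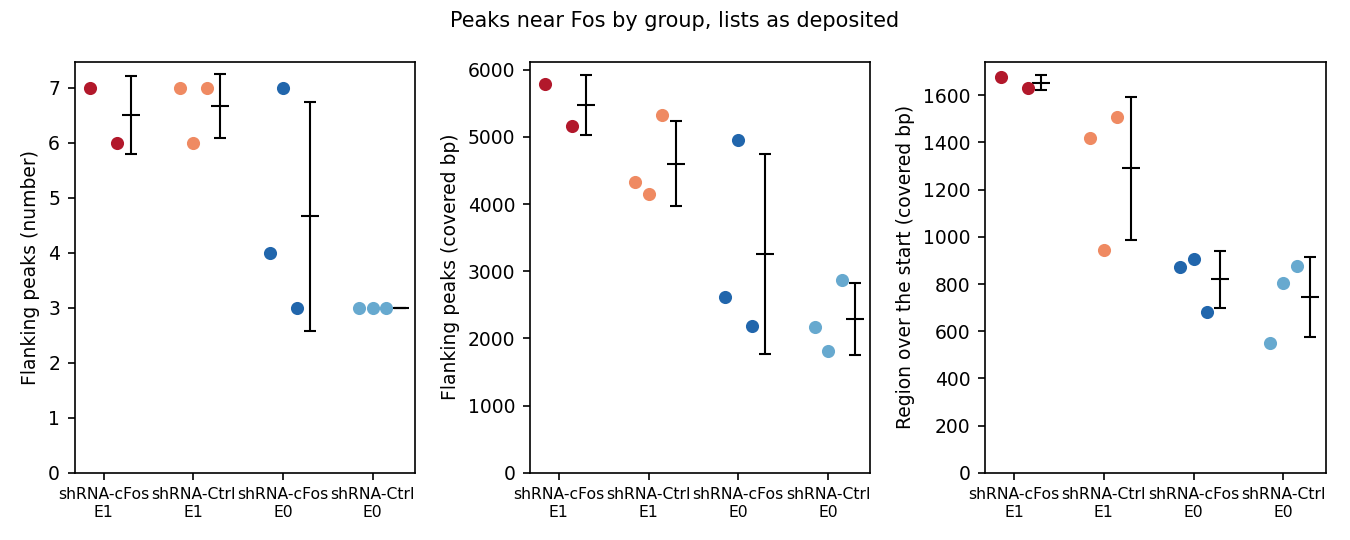
Number and covered length (bp) of flanking peaks, and covered length (bp) of the region over the start, by group on the horizontal axis. Points are libraries, and the bar with whiskers is the mean ± SD of 2 (shRNA-cFos E1) or 3 libraries. The E1 points lie above the E0 points except for shRNA-cFos E0 replicate 2 in the flanking values.

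Set against windows of 100 kb over the genome, the locus was rich in peaks. The Fos window is centred on a region called in all 11 libraries, and the other windows were not chosen in that way. Shares of windows below count those with as much as the Fos window or more. The whole Fos window, promoter included, held 8 and 7 peaks in shRNA-cFos E1 and 9, 7 and 8 in shRNA-Ctrl E1, against 5, 8 and 4 in shRNA-cFos E0 and 4 in each shRNA-Ctrl E0 library. As deposited, between 1.12% and 8.18% of the windows with a peak held as many in the E1 libraries, against 6.24% to 11.6% in the E0 libraries, and the ranges overlapped. At equal length between 0.556% and 2.73% of the windows with a peak held as many in the E1 libraries, against 7.42% to 8.86% in the E0 libraries, and the median window held 1 or 2 peaks. The E1 minus E0 difference in covered length of the Fos window was 2958 bp (exact permutation p = 0.01), and 0.598% of 23247 windows had one as large. A p under 0.05 with more length at E1 was found for 11.6% of windows. At equal length the difference was 2246 bp (exact permutation p = 0.005), as large in 0.306% of windows.

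Between shRNA groups no difference at the locus passed a test. As deposited, the 4 constant regions were called in both shRNA-cFos E1 and in all 3 shRNA-Ctrl E1 libraries. The same held for the 3 regions 5.9 kb before and 13.9 kb and 45.7 kb after the start. No region near Fos was found only in shRNA-cFos E1 or only in shRNA-Ctrl E1, against 0.534% and 1.59% of all regions. None was found only in shRNA-cFos E0 or only in shRNA-Ctrl E0, against 1.11% and 0.0217%. The region over the start was 220.2 bp longer in shRNA-cFos than in shRNA-Ctrl libraries, averaged over the states (two-sided exact permutation p = 0.1). Over all constant regions the median of this difference was 132 bp, and 89.9% were longer in shRNA-cFos. The flanking covered length was 923 bp higher in shRNA-cFos (exact permutation p = 0.1) and the number of flanking peaks 0.75 higher (exact p = 0.44).

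The E1 effect was also compared between shRNA groups, as shRNA-cFos minus shRNA-Ctrl. This difference of effects was 287.7 bp for the region over the start (exact permutation p = 0.385), -97.3 bp for the flanking covered length (exact p = 0.93) and -1.83 for the number of flanking peaks (exact p = 0.23). Divided by the length covered by the list, the difference of effects over the start was 21.9 bp per Mb (exact permutation p = 0.01). It had not passed as deposited, and it rests on 2 libraries of shRNA-cFos E1. For all these differences of effects, shRNA labels were permuted within states. The p-values thus assume no shRNA difference in either state, and do not test unequal E1 effects alone. With 2 or 3 libraries a group, a p above the threshold does not show that the shRNA groups were alike.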

How the data were processed

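Each of the 11 libraries has 1 deposited list of peaks with a position and a score, and peaks are named after the caller MACS. Per the submitters' processing notes Bowtie2 and build mm9 were used. Caller settings, read filters and the shift for the transposase are not given in the sources used here. Scores deposited by the authors run from 50 to 3100 in every list. Their scale is not stated, so no test compared scores between groups, although a minimum of 100 in 1 alternative treats the lists' scores alike, and with no read counts no counting error can be given.

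Only chromosomes 1 to 19 and X were kept (554 peaks lay elsewhere), and positions are printed 1-based. A region was called in a library with a peak in it, and covered length is the summed length of its peaks. Values were compared by two-sided exact permutation tests with state labels permuted within shRNA groups, or shRNA labels within states (200 labellings), and Benjamini-Hochberg adjustment over 9 tests. Replicates are separate mice. The members, lists and tests were chosen with earlier results of these data known. Regions called in at least 3 libraries were described singly, and the one called in fewer is named as well. Chosen after seeing the peaks were the downstream length, the 9 lists with the added word, and the tests over all constant regions and windows.

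Alternatives were equal list length, a score of at least 100, a window of 25 kb, values divided by list totals, peaks within 200 bp merged, 50% of a region covered, a block for replicate number, and leaving out every library in turn. Gene lists and tissue markers were not checked, since no mm9 annotation was used. The code was tested on simulated lists. Python 3.11.15, numpy 2.4.6, pandas 2.3.3 and matplotlib 3.10.9 were used.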

Additional observations from a re-analysis of the deposited data

How the results depend on the processing

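The E1 minus E0 difference over the Fos start kept its direction and its call with lists of equal length and a score of at least 100, and without any 1 library (635.2 to 775.5 bp). A window of 25 kb holds the whole region over the start, so it could not change this difference. Divided by the list total the difference lost its call (7.76 bp per Mb). That of the flanking covered length ranged from 2002 to 2694 bp without 1 library and lost its call per list total (33.15 bp per Mb). It was 2047 bp among the 9 lists with the added word, which leave 1 shRNA-Ctrl E1 library. The number of flanking peaks no longer passed per list total (0.2381) and with scores from 100 up (1.583). Its difference was 2.417 among the 9 lists, given without a test. The number also did not pass in 6 of 11 leave-outs. These were without shRNA-Ctrl E1 replicate 1, 2 or 3 (exact permutation p = 0.06 each). The others were without shRNA-cFos E0 replicate 1 or 3 or shRNA-cFos E1 replicate 1 (exact permutation p = 0.05 each). The difference in number lay between 2.333 and 3.333 without 1 library. With the replicate number as a block the differences were 655.1 bp over the start, 585 bp of it downstream, 2002 bp in the flanks and 2.333 peaks. None passed, since the smallest p of the block is 0.0625. Same-numbered libraries did not deviate together (correlations over regions from -0.0316 to 0.0505). With so few libraries a group, this cannot show whether the numbers pair the mice. The shRNA difference in flanking peaks turned at equal length (-0.25). The difference of E1 effects turned for their number per list total (0.3155), and for their covered length at equal length (206.8 bp), with a score of at least 100 (138.5 bp), within 25 kb (86.83 bp), per list total (40.22 bp per Mb), under the block (263.3 bp), among the 9 lists (346.3 bp) and without some libraries (-631.3 to 753.7 bp). Over the start it passed per list total (21.88 bp per Mb). The cause of these changes was not tested.

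Regions found only at shRNA-Ctrl E1, 3 as deposited, were 1 at equal length and 0 with a score of at least 100, and 3 to 4 without 1 library. Those found only at shRNA-cFos E1 were 1 at equal length and 0 to 3 without 1 library. The reverse pattern in shRNA-cFos, and shRNA-cFos only at E0, shRNA-cFos only at E1 and shRNA-Ctrl only at E1, each gave 0 to 1 without 1 library. The 3 regions with an exact permutation p under 0.05 became 1 at equal length, 0 with a score of at least 100 and under the block, and 0 to 3 without 1 library. Only without shRNA-cFos E0 replicate 2, the library that shares these regions, were there 3, and fewer libraries allow fewer labellings.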
